A study of Homo sapiens with 24 samples.

Results

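The major histocompatibility complex (MHC) region lncRNA intervals were 549 annotated intervals of long non-coding RNA among the 175946 rows of the deposited small RNA table. They were taken by position and name: rows classed as lncRNA on chromosome 6 between 29.6 and 33.4 Mb (GRCh38), at most 200 kb long, whose names start with lnc-, NONHSAG or HSALNG, the prefixes of catalogue entries rather than of named genes. The rule itself uses no measured value, though it was chosen with earlier results of these data known. The same rows were found in the ATAC-seq table by their row number. The cells were HEK293, an established human embryonic kidney line given as Wild Type in the labels, which overexpressed eGFP (the control, GFP below) or the nuclear lamina proteins LMNA, LMNB1 or LMNB2. Each of these 4 groups had 3 small RNA libraries and 3 ATAC-seq libraries, 24 in all. No group was left without an overexpression construct, so every comparison below is of a lamin against eGFP. The labels do not say that replicates came from separate cultures, so p-values measure only the spread between these libraries, which may be technical.

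The MHC is the gene-dense stretch of the short arm of chromosome 6 that holds the classical HLA genes. HLA-B and HLA-C are among the genes for the class I molecules that show peptides from inside the cell to cytotoxic T cells, the class II genes encode the molecules that show peptides from outside the cell to helper T cells, and the class III stretch between them holds complement, chaperone and RNA-processing genes. Class I genes are used by most nucleated cells, while class II genes are largely kept to antigen-presenting cells, and HEK293 is of no immune lineage. Lamins form a meshwork under the inner nuclear membrane, where they contact chromatin.

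The 549 intervals carried 354 names and fell into 224 loci of overlapping intervals, of which 155 held 1 interval and the largest held 61. Their median length was 2055 bp, and 328 lay on the minus strand and 221 on the plus strand. By landmark genes, 317 lay on the class I side (up to the end of MICB), 127 in class III and 105 on the class II side (from the start of BTNL2). An antigen presentation gene (HLA, MICA, MICB, TAP, TAPBP or proteasome genes) overlapped 72 intervals, another protein-coding gene overlapped 253, and no protein-coding gene overlapped 224. The deposited counts carried no sign of strand: in 144 pairs of intervals nested on opposite strands, the inner count never exceeded the outer one in any library. A count in an interval inside a coding gene can therefore not be assigned to the lncRNA rather than to the gene, and counts at the near-identical class I genes are uncertain because reads can match several of them.

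The start regions of 5 genes are shown first, because some of the intervals described below reach across or lie beside them. Those of HLA-E and DDAH2, where called intervals also lie, are not among them. The sequences are the 250 bases before each gene's start in RefSeq (GRCh38.p14), written 5′ to 3′ along the gene's strand. Capitals mark 4 motifs searched on both strands: the CCAAT box (CCAAT, reverse ATTGG), the GC box (GGGCGG, reverse CCGCCC), one form of the interferon-stimulated response element and one form of the kappaB site. The last 2 are the longer capital runs in HLA-B, the kappaB site coming first. No motif overlapped another in these 5 sequences.

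HLA-B (chr6:31357180-31357429, minus strand): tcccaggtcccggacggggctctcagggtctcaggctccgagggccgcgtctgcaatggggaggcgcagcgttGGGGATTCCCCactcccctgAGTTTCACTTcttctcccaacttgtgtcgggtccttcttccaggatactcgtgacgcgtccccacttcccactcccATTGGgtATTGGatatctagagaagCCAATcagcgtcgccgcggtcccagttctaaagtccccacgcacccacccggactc

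HLA-C (chr6:31272093-31272342, minus strand): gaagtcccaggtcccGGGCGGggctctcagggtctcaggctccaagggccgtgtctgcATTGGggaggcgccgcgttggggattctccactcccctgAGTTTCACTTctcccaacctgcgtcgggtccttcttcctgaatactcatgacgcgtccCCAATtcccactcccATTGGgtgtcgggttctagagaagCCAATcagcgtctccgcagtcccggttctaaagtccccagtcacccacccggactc

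HLA-F (chr6:29723184-29723433, plus strand): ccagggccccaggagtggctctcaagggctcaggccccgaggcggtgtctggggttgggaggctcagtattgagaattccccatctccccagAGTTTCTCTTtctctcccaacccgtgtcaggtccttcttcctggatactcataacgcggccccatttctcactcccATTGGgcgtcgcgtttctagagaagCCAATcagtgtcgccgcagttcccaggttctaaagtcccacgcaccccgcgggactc

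HCG27 (chr6:31197510-31197759, plus strand): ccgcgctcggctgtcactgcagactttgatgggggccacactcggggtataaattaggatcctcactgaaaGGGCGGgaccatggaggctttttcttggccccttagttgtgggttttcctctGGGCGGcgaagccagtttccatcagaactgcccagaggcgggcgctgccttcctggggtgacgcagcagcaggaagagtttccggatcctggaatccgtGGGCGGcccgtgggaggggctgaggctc

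KIFC1 (chr6:33391573-33391822, plus strand): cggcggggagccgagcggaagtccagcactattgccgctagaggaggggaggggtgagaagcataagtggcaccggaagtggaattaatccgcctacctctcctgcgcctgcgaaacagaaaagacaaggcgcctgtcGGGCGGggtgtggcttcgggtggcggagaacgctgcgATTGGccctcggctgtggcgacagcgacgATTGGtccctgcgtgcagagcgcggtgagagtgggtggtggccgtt

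The HLA-B sequence held the kappaB letters, the interferon response letters and 3 CCAAT boxes. Among the 34943 start regions of the same length in the table, 0.0315% held the kappaB letters, 1.33% the interferon response letters, 32.0% a CCAAT box and 42.5% a GC box. HLA-C and HLA-F held the interferon response letters but not the exact kappaB letters. HCG27, a named non-coding gene of the class I side, held 3 GC boxes and none of the other motifs, and KIFC1 held 1 GC box and 2 CCAAT boxes. A match describes the letters in this window and does not show that a factor binds there. HLA-E has no entry in the table used.

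The total over all rows was 133 M to 195 M counts in the small RNA libraries and 156 M to 290 M counts in the ATAC-seq libraries. Levels are given as CPM, the count divided by the library size in M after TMM scaling, edgeR's correction for composition. The scaled library size of the small RNA libraries was between 0.631 (GFP replicate 1) and 1.31 times the total count (GFP replicate 3), so the control group held both ends. Rows that overlap the overexpressed genes matched the labels where they could: a signal recognition particle RNA row inside LMNB1 stood at 118 to 135 CPM in the LMNB1 libraries and at most 1.43 elsewhere, and NONHSAG024437.2 inside LMNB2 at 336 to 378 CPM in the LMNB2 libraries and at most 0.753 elsewhere. The only tested row at LMNA, lnc-MEX3A-1, was at 0.0169 to 0.107 CPM throughout and does not check that label. The microRNAs listed for HEK293 cells were present in every library, from MIR19A (0.128 to 0.913 CPM) to MIR92A1 (16.1 to 52.1 CPM) and MIR10A (33.2 to 218 CPM). The blood and immune markers MIR142, MIR223, MIR150 and MIR144 stayed at or below 0.0351 CPM. MIR126, listed for stroma and endothelium (0.704 to 4.39 CPM), and MIR9-1, listed for neurons (0.163 to 1.43 CPM), were also in every library. The muscle markers, and the other markers listed for stroma and endothelium or for neurons, stayed at or below 0.0169 CPM. Markers of the same list thus differed, and the marker levels do not identify the cells by themselves.

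Most MHC lncRNA intervals were thinly covered by small RNA reads. No library had a count in 28 of them, the median interval had a mean of 2.83 counts per library, and 191 of 549 (34.8%), in 47 loci, passed edgeR's filter on low counts. Outside the window, 15.6% of the 5547 intervals chosen by the same name and length rule on chromosome 6 and 15.2% of the 91123 on other chromosomes passed. Intervals at antigen presentation genes passed most often (38 of 72, 52.8%), then those at other coding genes (108 of 253, 42.7%) and those at no coding gene (45 of 224, 20.1%). On the class I side 126 intervals passed, in class III 41 and on the class II side 24. A thinly covered interval can pass through the group in which it is high, so the counts below are of tested intervals, not of all 549.

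One interval held most of the counts. lnc-ATP6V1G2-DDX39B-1 (chr6:31530194-31546873, across MCCD1, DDX39B and ATP6V1G2 and into NFKBIL1) took 66.6% to 79.7% of all counts over the 549 intervals in each library. Between 97.9% and 99.02% of its counts fell in 2 small nucleolar RNAs in DDX39B introns, SNORD117 and SNORD84. SNORD117 was at 162 CPM in GFP replicate 1, at 82.3 and 82.8 in the other GFP libraries, at 116 to 132 with LMNA, at 92.3 to 93.6 with LMNB1 and at 93.7 to 98.5 with LMNB2. SNORD84 was at 28.8, 16.7 and 22.2 CPM in the 3 GFP libraries and between 19.2 and 30.0 in the lamin libraries. The control libraries thus spread more widely than any lamin group for both snoRNAs, and no test called either.

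Outside the 2 snoRNAs the same interval held only 219 to 399 counts per library. That remainder stood at 1.88, 1.95 and 1.89 CPM in the GFP libraries, 1.84, 2.10 and 2.08 with LMNA, 2.41, 1.87 and 2.05 with LMNB1, and 2.35, 2.53 and 2.44 with LMNB2. All 3 LMNB2 libraries were above all GFP and LMNA libraries, and LMNB1 replicate 1 reached into the LMNB2 range. The remainder was separated after the counts were seen and was not tested.

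**Figure D1:**
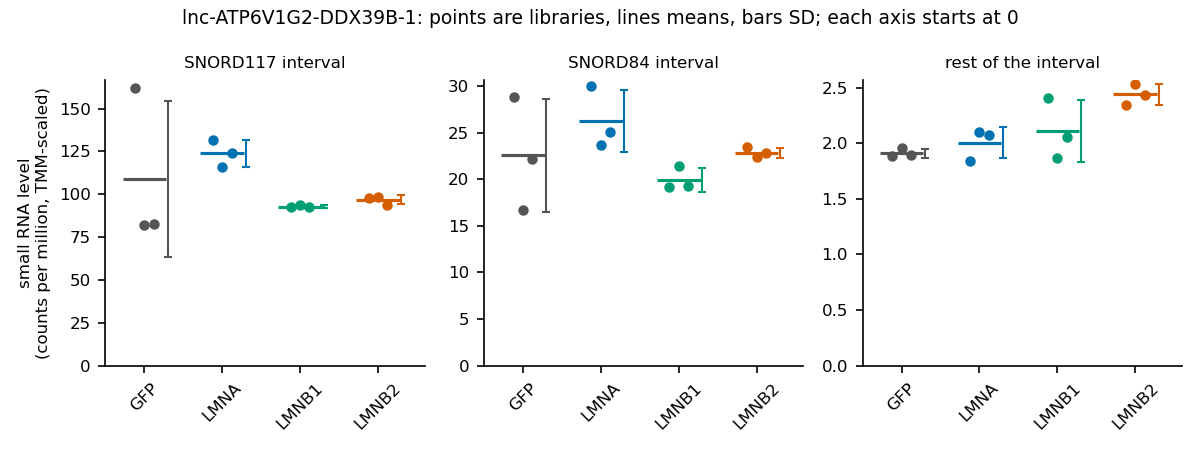
Small RNA level (TMM-scaled CPM) within lnc-ATP6V1G2-DDX39B-1, split into SNORD117, SNORD84 and the rest of the interval; points are libraries by group, horizontal lines group means and bars SD (n = 3). GFP replicate 1 reaches 162 CPM for SNORD117, and the rest of the interval stays between 1.84 and 2.53 CPM.

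The next most counted intervals lay over highly expressed coding genes or long transcripts. NONHSAG046411.2 (chr6:30720355-30725441), over the beta-tubulin gene TUBB, was at 1.09 ± 0.201 CPM in GFP and 1.21 ± 0.104, 1.09 ± 0.025 and 1.11 ± 0.0353 CPM with LMNA, LMNB1 and LMNB2 (SD, n = 3 per group). A second entry over TUBB, NONHSAG045703.2, shares most of that interval. lnc-TRIM26-2 (chr6:30234014-30326411), which overlaps no coding gene and shares its span with the non-coding genes HCG17 and HCG18, was at 0.920 ± 0.103 CPM in GFP and 0.825 ± 0.0699, 0.739 ± 0.104 and 0.943 ± 0.0314 with LMNA, LMNB1 and LMNB2. NONHSAG043403.2 covers nearly the same bases. NONHSAG043601.2 (chr6:33272050-33276529), over RPS18, a protein of the small ribosomal subunit, was at 0.821 ± 0.0738, 0.809 ± 0.0443, 0.818 ± 0.109 and 0.885 ± 0.0988 CPM in the same order, and NONHSAG046518.2 lies inside it. In none of these intervals did a lamin group pass the test against GFP.

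With LMNB2, intervals at HLA-B, at HLA-E and beside HCG27 rose in small RNA reads, each by about 1 on the log2 scale, and none was called lower. With p-values from edgeR's quasi-likelihood test, adjusted over all 33893 tested rows by Benjamini and Hochberg's method, 3 of 191 tested MHC intervals were called at an adjusted p under 0.05 (1.57%, all higher), where 2.66% of all tested rows were called (1.91% higher, 0.752% lower). The called share in the MHC was thus below that over the whole table. Without adjustment, 27 intervals had p under 0.05, or 14.1%, against 19.9% of all tested rows, and 25 of them were higher (13.1% against 9.58%). DESeq2 called 1. The calls rested on single libraries: none was left without GFP replicate 2, LMNB2 replicate 2 or LMNB2 replicate 3, and 9 intervals were called without GFP replicate 3. Here and below, the share of all rows called in such reduced fits was not set beside these counts.

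lnc-HLA-C-5 (chr6:31355366-31357204, minus strand, 1839 bp) covers the 5′ end of HLA-B, also on the minus strand. It runs 25 bp into the gene-side end of the HLA-B start region printed above, the same number of bases that deposited rows most often carry as padding at each end. It had 16, 15 and 25 counts in the GFP libraries, 35, 23 and 22 with LMNA, 35, 25 and 37 with LMNB1, and 37, 48 and 49 with LMNB2. That is 0.137, 0.110 and 0.141 CPM in GFP and 0.223, 0.307 and 0.348 CPM with LMNB2. All 3 LMNB2 libraries were above all GFP, LMNA and LMNB1 libraries in CPM, while LMNA replicate 3 fell among the GFP libraries. The log2 fold change was 1.09 (SE 0.26) with LMNB2, adjusted p = 0.0287 by edgeR's quasi-likelihood test, and the adjusted p ran from 0.0125 to 0.12 when 1 library was left out. With LMNA it was 0.34 (SE 0.27) and with LMNB1 0.53 (SE 0.26), neither called.

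HSALNG0049148 (chr6:30491232-30493313, plus strand) lies within HLA-E, the class I gene whose product is read by natural killer cells. It had 6, 8 and 8 counts in GFP, 16, 17 and 18 with LMNA, 15, 14 and 20 with LMNB1, and 21, 23 and 14 with LMNB2. In CPM, all 9 lamin libraries were above all 3 GFP libraries, whose mean was 0.0518 ± 0.00687 CPM. The log2 fold change was 1.10 (SE 0.30) with LMNB2 and was called (adjusted p = 0.0344, edgeR's quasi-likelihood test, or 0.0402 to 0.159 without 1 library). It was 0.90 (SE 0.31) with LMNA and 0.78 (SE 0.31) with LMNB1, and neither was called. No GFP library reached the level of the filter on low counts. The interval passed through the lamin libraries, so a rise was favoured by its selection.

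The third called interval, NONHSAG043458.2 (chr6:31185843-31197902, minus strand), overlaps no coding gene and reaches just past the start of HCG27, which runs the other way. It had 5, 6 and 11 counts in GFP, 20, 15 and 29 with LMNA, 21, 22 and 33 with LMNB1, and 25, 16 and 18 with LMNB2. Again every lamin library was above every GFP library in CPM (0.0430, 0.0441 and 0.0620 in GFP, at least 0.102 with a lamin). Only 1 GFP library reached the level of the filter on low counts, so again a rise was favoured by selection. The log2 fold change was 1.14 (SE 0.33) with LMNB2, which was called (adjusted p = 0.0431, edgeR's quasi-likelihood test, or 0.0257 to 0.139 without 1 library). With LMNA it was 1.20 (SE 0.33) and with LMNB1 1.37 (SE 0.32), both larger than with LMNB2 but not called (adjusted p = 0.724 and 0.215, edgeR's quasi-likelihood test).

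A shorter interval at the HCG27 end held nearly as many reads. lnc-HLA-B-2 (chr6:31195175-31197939), which overlaps NONHSAG043458.2 and ends just past it, had 4, 4 and 10 counts in GFP, 20, 13 and 25 with LMNA, 18, 23 and 28 with LMNB1, and 22, 13 and 14 with LMNB2. Its group means were 0.0400, 0.120, 0.137 and 0.105 CPM for GFP, LMNA, LMNB1 and LMNB2, with the 3 lamins overlapping each other and none overlapping GFP. Here too only 1 GFP library reached the filter's level, which favours a rise in lnc-HLA-B-2. It was the interval with the highest log2 fold change with LMNB1 (1.47, SE 0.35), and another form of it (chr6:31194933-31197784) had the highest with LMNA (1.30, SE 0.36). The test of any difference among the 4 groups called it alone of the tested MHC intervals (adjusted p = 0.0494, edgeR's quasi-likelihood test), or 0.524% against 1.68% of all tested rows. That call was lost without any 1 library other than GFP replicate 3 or LMNA replicate 2, with adjusted p-values in edgeR from 0.0145 to 0.147, and 9 intervals were called without GFP replicate 3. The longest HCG27 row that begins at its start held 1 to 7 counts per library and was not tested.

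**Figure D2:**
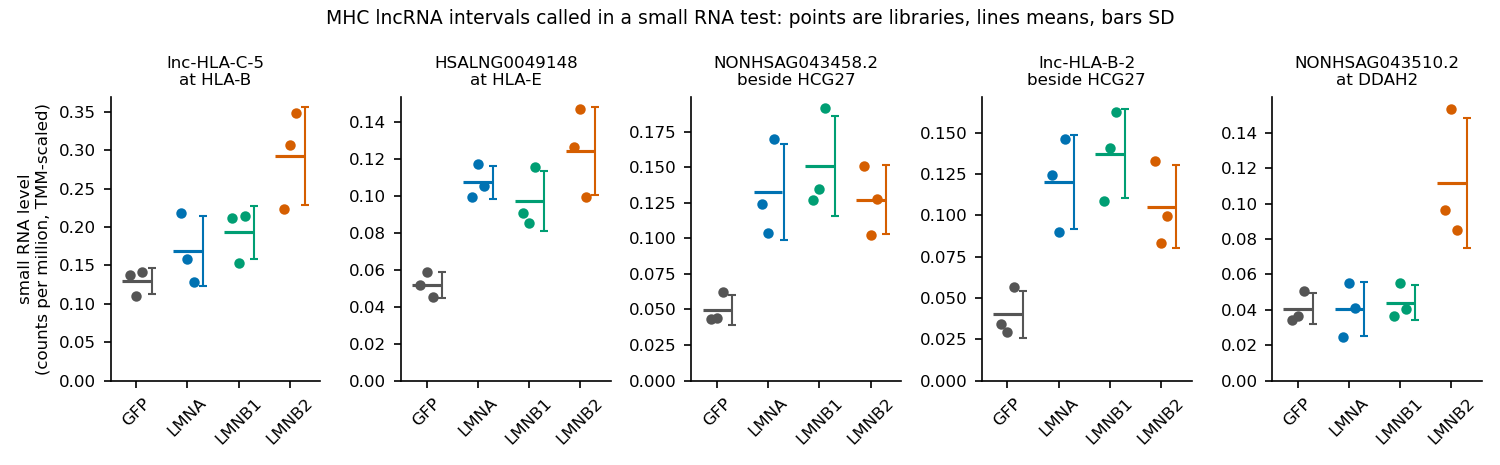
Small RNA level (TMM-scaled CPM, axes from 0) of the 5 MHC lncRNA intervals called in a test; points are libraries by group, lines group means and bars SD (n = 3). The HLA-E and HCG27 intervals are higher with every lamin, whereas the DDAH2 interval, which passed the count filter only through LMNB2, stands at 0.0853 to 0.154 CPM there and at most 0.0552 CPM elsewhere.

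One interval over DDAH2 was high in the LMNB2 libraries alone. NONHSAG043510.2 (chr6:31727644-31730224, minus strand), over DDAH2 in class III, a gene of the dimethylargininase family, had 4, 5 and 9 counts in GFP, 4, 8 and 7 with LMNA, 6, 9 and 7 with LMNB1, and 16, 24 and 12 with LMNB2. The LMNB2 libraries (0.0965, 0.154 and 0.0853 CPM) were above all others, whose highest was 0.0552 CPM. It passed the filter on low counts only with the LMNB2 libraries, so a difference was built into its selection and its values are a description. Formally, the joint test of the 3 lamins called it alone of the 191 (adjusted p = 0.0487, edgeR's quasi-likelihood test, 0.524% against 1.93% of all tested rows). The call was lost without any 1 library other than GFP replicate 3, without which 3 intervals were called. Against GFP its log2 fold change with LMNB2 was 1.20 (SE 0.38) and was not called. Without adjustment, 31 intervals had p under 0.05 among the 4 groups (15.9% of all tested rows) and 23 among the 3 lamins (16% of all tested rows).

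Of the 9 tested intervals at HLA-B but not HLA-C, 1 was called with LMNB2 and 0 with LMNA or LMNB1. Over all tested rows, 2.66%, 0% and 0.0384% were called with LMNB2, LMNA and LMNB1. Of 3 more that span both genes, 0 were called. lnc-HLA-C-5 on the 5′ side and lnc-HLA-C-2 on the 3′ side (chr6:31353847-31355101) do not overlap. The 3′ interval had 19, 11 and 21 counts in GFP, 17, 13 and 20 with LMNA, 24, 32 and 16 with LMNB1, and 18, 12 and 18 with LMNB2, so all groups overlapped. The ratio of 5′ to 3′ counts, which does not depend on library scaling, was 0.842, 1.36 and 1.19 in GFP, 2.06, 1.77 and 1.10 with LMNA, 1.46, 0.781 and 2.31 with LMNB1, and 2.06, 4.0 and 2.72 with LMNB2. The LMNB2 ratios were all above the GFP ratios, while the LMNA and LMNB1 ratios overlapped both. This pair was chosen after its values were seen and the ratio was not tested. A shorter form of lnc-HLA-C-5 that bridges the 2 sides (chr6:31355097-31355827) had the highest log2 fold change of all tested intervals with LMNB2, 1.24 (SE 0.42), on 3, 3 and 7 counts in GFP and 20, 11 and 10 with LMNB2, and was not called. It too passed the filter only with the LMNB2 libraries. The microRNA gene MIR6891 lies inside that form and had no count in any library.

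**Figure D3:**
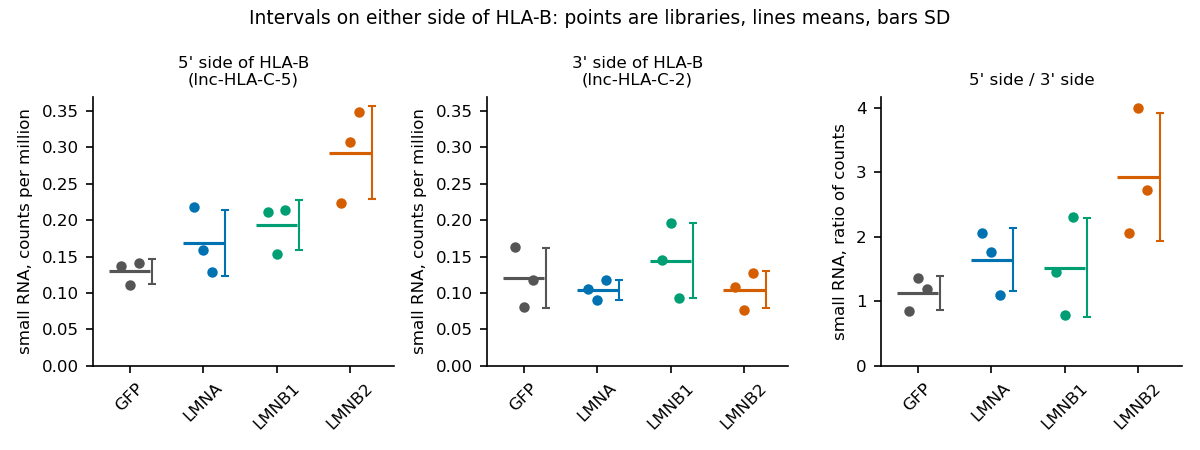
Small RNA level (TMM-scaled CPM) of the intervals on the 5′ and 3′ sides of HLA-B and the ratio of their counts; points are libraries by group, lines group means and bars SD (n = 3). The LMNB2 libraries stand above GFP on the 5′ side and in the ratio (2.06 to 4.0 against 0.842 to 1.36), and the groups overlap on the 3′ side.

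Over the 38 tested intervals at antigen presentation genes, the log2 fold change was above 0 for 22 with LMNA, 35 with LMNB1 and 29 with LMNB2. Their medians were 0.02, 0.25 and 0.17, against -0.05, -0.05 and -0.04 over all tested rows, and the intervals are heavily nested, so these are not 38 independent values. At HLA-B but not HLA-C, 9 of 9 tested intervals were above 0 with LMNB1 and 7 of 9 with LMNB2, with medians of 0.24 and 0.33. At HLA-C but not HLA-B, 9 of 9 were above 0 with LMNB1 and 6 of 9 with LMNB2, with medians of 0.39 and 0.04. Of the 3 tested intervals that span both genes, 0 were above 0 with LMNA, 3 with LMNB1 and 3 with LMNB2. At HLA-F, a class I gene of limited polymorphism, 1 of 3 was above 0 with LMNB2. The interval with the lowest log2 fold change with LMNB2 was among these: NONHSAG045651.2 (chr6:29725429-29729376) had 11, 5 and 13 counts in GFP and 4, 4 and 4 with LMNB2, a log2 fold change of -1.05 (SE 0.45) that was not called (adjusted p = 0.110, edgeR's quasi-likelihood test). It passed the filter on low counts only with the GFP and LMNB1 libraries, so a lower level with LMNB2 was built into its selection. The single tested interval at a class II gene, HLA-DPB1, had a mean of 7.92 counts per library.

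Across all 191 tested intervals, more were above GFP with LMNB2 than with the other lamins. The log2 fold change was above 0 in 83 intervals with LMNA (43.5%, against 43.1% of all tested rows), in 101 with LMNB1 (52.9% against 44.1%) and in 139 with LMNB2 (72.8% against 46.8%). The medians were -0.03, 0.01 and 0.10. By library, the median log2 deviation of the tested intervals from the GFP mean was -0.03, 0.10 and -0.04 in GFP. It was 0.14, 0.01 and -0.02 with LMNB1 and 0.13, 0.01 and 0.14 with LMNB2. LMNB2 replicate 2 thus lay within the GFP range, and the groups were not separated by library. With LMNB2, tested intervals of the same rule elsewhere on chromosome 6 had a median of -0.18 and 30.9% above 0, and those on other chromosomes a median of 0.02 and 52.1% above 0. Class III stood highest (34 of 41 above 0, median 0.36), then the class I side (93 of 126, 0.04), and the class II side was split (12 of 24, -0.08). These are descriptions: the 3 comparisons share the GFP libraries, and 85 of the 191 intervals lie in 3 loci, so they are not independent values.

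The filter on low counts also favoured intervals high in one group: 23 of the 191 passed only with the LMNB2 libraries, 4 only with LMNB1, 3 only with LMNA and 2 only with GFP. Among the 167 that passed both without LMNB2 and without GFP, a set chosen after the data were seen, 116 were above 0 with LMNB2 (69.5%, against 44.8% of all rows kept the same way), with a median of 0.04. All 3 LMNB2 libraries were above all GFP libraries in 30 of them (18% against 11.3%), and the 3 calls were among them. Intervals that passed through the other lamins stay in this set, as HSALNG0049148 and NONHSAG043458.2 did. It therefore does not remove the selection of those intervals. The counts by class, gene and locus given here still include the intervals outside this set.

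Counting loci removes much of the repetition but not the selection by the filter. Some loci, such as that of lnc-TNXB-7, held only tested intervals that passed only with the LMNB2 libraries, which favoured a rise. Loci were not counted over the whole table, so no background share is given. The median of a locus's tested intervals was above 0 in 26 of 47 loci with LMNA, 31 with LMNB1 and 39 with LMNB2, and the median over loci was 0.02, 0.14 and 0.32. Scaling by total counts moved the median of all tested rows with LMNB2 from -0.04 to 0.19. Measured from the median of all rows instead of 0, 143 of 191 intervals were higher with LMNB2 under each of 4 scalings. A scaling shifts all rows nearly alike, so this count could hardly change between scalings and is no check of the shift. All 3 LMNB2 libraries were above all 3 GFP libraries in 43 intervals (22.5%, against 12.1% of all tested rows) and below them in 16 (8.38% against 10.2%). All 9 lamin libraries were above all 3 GFP libraries in 5 intervals (2.62% against 0.782%), 4 of them at HCG27 and 1 at HLA-E, and below them in 0 (0.472% of all tested rows). The 4 at HCG27 overlap, so the 5 intervals lie in 2 loci. They passed the filter on low counts through lamin libraries, as at most 1 GFP library reached its level in each. A rise with the lamins was thus favoured by their selection, and this share is a description.

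**Figure D4:**
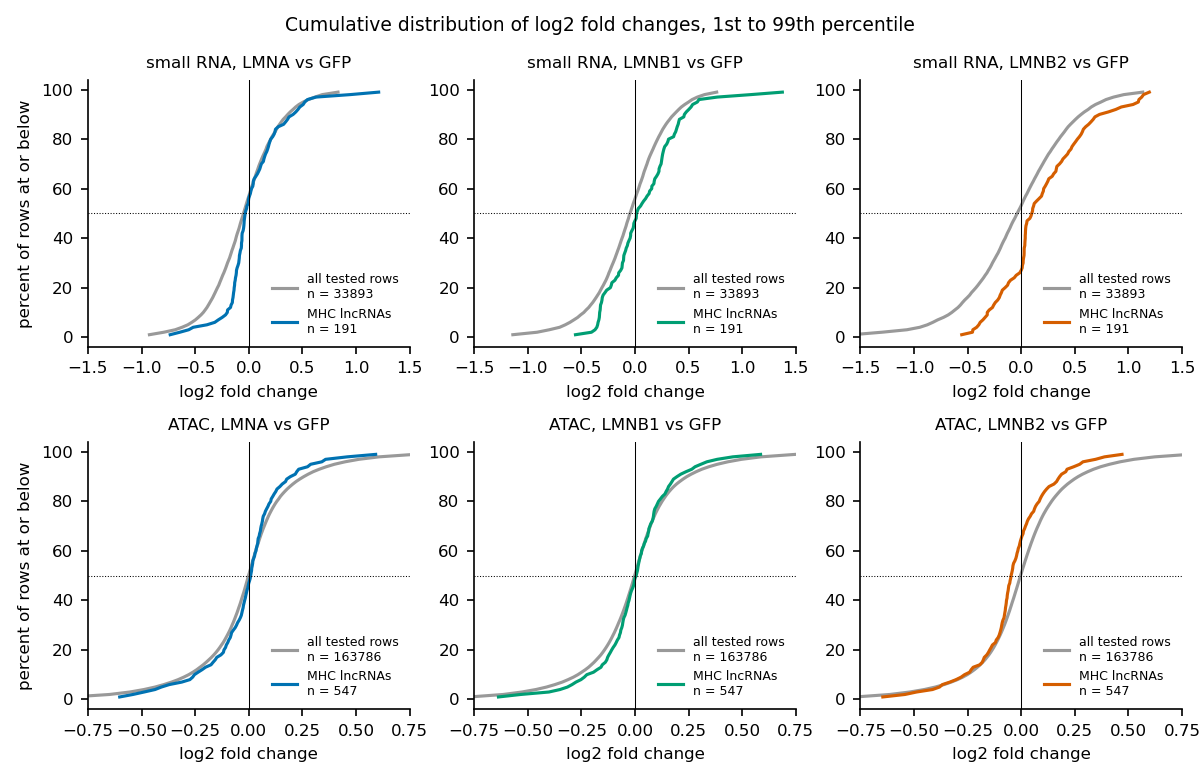
Cumulative distributions of the log2 fold change of each lamin against GFP (x axis), as the percent of rows at or below each value (y axis), for all tested rows in grey and the tested MHC lncRNA intervals in colour, small RNA above and ATAC below. The MHC curve lies to the right of the grey one for small RNA with LMNB2 (medians 0.10 and -0.04) and slightly to the left for ATAC with LMNB2.

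With LMNA and with LMNB1, no tested MHC interval was called in small RNA reads. For LMNA, 0% of all tested rows were called by edgeR's quasi-likelihood test either, 9 intervals had an unadjusted p under 0.05 (4.71%, against 5.46% of all rows) and DESeq2 called 0. Without GFP replicate 3, edgeR called 2 intervals with LMNA. For LMNB1, 0.0384% of all rows were called, 20 intervals had an unadjusted p under 0.05 (10.5% against 5.51%) and DESeq2 called 0. All 3 LMNA libraries were above all GFP libraries in 11 intervals (background 4.16%) and below in 6 (5.34%), and all 3 LMNB1 libraries in 19 (4.76%) and 5 (5.29%). The lowest log2 fold change with LMNA was that of lnc-IER3-15 (chr6:30793119-30818512), with 5, 5 and 6 counts in GFP and 3, 2 and 3 with LMNA (-0.76, SE 0.54). The lowest with LMNB1 was that of NONHSAG046629.2 (chr6:31633929-31634781) within PRRC2A, with 17, 8 and 14 counts in GFP and 11, 2 and 12 with LMNB1 (-0.74, SE 0.46). Its LMNB1 libraries overlapped the GFP libraries.

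Named RNAs of the same window were read beside the catalogue intervals. Of 110 rows of 31 named lncRNA genes, 36 were tested, and 8 were called higher and 0 lower with LMNB2 (1.91% and 0.752% of all tested rows). All 8 were forms of 2 genes: LINC02569 (1 row) and TSBP1-AS1 (7 rows), a long transcript antisense to TSBP1 beside the class II genes. One of the most counted forms of TSBP1-AS1 (chr6:32255148-32407754) had 36, 37 and 45 counts in GFP, 44, 28 and 43 with LMNA, 36, 50 and 35 with LMNB1, and 72, 89 and 69 with LMNB2, a log2 fold change of 0.82 (SE 0.20) with LMNB2. NONHSAG043555.2 (chr6:32323493-32349849) lies inside it and had 13, 8 and 14 counts in GFP and 15, 9 and 12 with LMNB2, with no difference between the groups beyond their spread. LINC02569 (chr6:30516643-30531446) had 6, 6 and 6 counts in GFP and 15, 21 and 22 with LMNB2. The filter on low counts asks for 10 counts at the median library total, in 3 libraries. No GFP library of LINC02569 reached that level and all 3 LMNB2 libraries did, so a rise was favoured by its selection. All 5 snoRNA rows and 4 of 23 microRNA rows were tested, and none of these was called with a lamin. With edgeR, 1 microRNA row had an unadjusted p under 0.05 with LMNB1 and 2 with LMNB2 (5.51% and 19.9% of all tested rows).

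In ATAC-seq, which counts transposase cuts in open chromatin, the MHC windows were denser than those of the same rule elsewhere. Each window is the interval widened by 125 bp on each side. The median density over the 549 windows was 0.277 CPM per kb, against 0.120 on the rest of chromosome 6 and 0.0970 on other chromosomes. The MHC windows also held a RefSeq start region more often (207 of 549, 37.7%, against 25.2% elsewhere). Windows with one had a median of 0.676 CPM per kb and those without 0.216, and outside the MHC the corresponding medians were 0.248 and 0.0822. Class III was densest (0.475), then the class II side (0.327) and the class I side (0.244).

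Many windows stood above their own surroundings. Against the flanks of 50 kb, also deposited, 130 of 207 windows with a start region and 97 of 342 without one were denser, with median log2 ratios of 0.55 and -0.91. At least 4 times the flank density was reached by 79 windows, 52 of them with a start region. The densest window was NONHSAG046336.2 (chr6:33391511-33391890), over the start of KIFC1, a minus-end-directed kinesin, at 24.02 CPM per kb against 0.619 in its flanks. Its level was 14.8 ± 1.63 CPM in GFP and 15.7 ± 0.417, 15.7 ± 1.29 and 14.3 ± 0.828 with LMNA, LMNB1 and LMNB2. lnc-VPS52-1 at the start of HCG25 had 11.8 CPM per kb, lnc-NOTCH4-1 at the start of GPSM3, a regulator of G-protein signalling, 10.5, and NONHSAG046158.2 at the start of BRD2, a reader of acetylated histones, 10.1. At the class I starts printed above, lnc-POU5F1-3 over HLA-C had 6.55 CPM per kb, lnc-ZFP57-11 over HLA-F 3.72 and lnc-HLA-C-5 over HLA-B 2.15, against 0.122, 0.317 and 0.332 in their flanks. lnc-HLA-B-2 beside HCG27 had 3.82 against 0.321.

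The windows with the most counts were large or lay at strong start regions. lnc-RNF39-4 (chr6:29988218-30067061), across POLR1H, a subunit of RNA polymerase I, and PPP1R11, had a density of only 0.370 CPM per kb. The window of lnc-ATP6V1G2-DDX39B-1 had 1.54 CPM per kb and was at 25.2 ± 2.89 CPM in GFP and 26.5, 27.1 and 25.7 with LMNA, LMNB1 and LMNB2. NONHSAG046253.2 (chr6:31270259-31357200), which spans HLA-C and HLA-B, was at 23.8, 23.0 and 22.7 CPM in GFP, 21.8, 22.2 and 20.6 with LMNA, 21.7, 22.4 and 20.3 with LMNB1, and 21.3, 20.1 and 21.7 with LMNB2. All 9 lamin libraries were below the 3 GFP libraries there, but no lamin passed the test.

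No MHC window was called in ATAC-seq. Of 549 windows 547 were tested, and 0 passed an adjusted p of 0.05 in edgeR's 5 quasi-likelihood tests, where 0.000611% of all 163786 tested windows were called with LMNA, 0.00305% with LMNB1, 0.00244% with LMNB2, 0.0421% among the 4 groups and 0.0916% among the 3 lamins. Without adjustment 31, 19 and 28 windows had p under 0.05 with LMNA, LMNB1 and LMNB2, where 5.19%, 4.78% and 5.72% of all windows did. In the joint tests 19 windows each did (5.81% of all windows among the 4 groups, 6.24% among the 3 lamins), and DESeq2 called 0 in each test. Of the windows of the 5 intervals called in small RNA reads, none was called here. lnc-HLA-C-5 was at 4.81 ± 0.455 CPM in GFP and 4.53 ± 0.422, 4.18 ± 0.385 and 4.43 ± 0.386 with LMNA, LMNB1 and LMNB2. NONHSAG043510.2 at DDAH2 was at 9.58 ± 0.788 CPM in GFP and 9.17 ± 0.272 with LMNB2, and lnc-HLA-B-2 at 11.4 ± 0.942 and 10.7 ± 0.226. HSALNG0049148 at HLA-E was at 0.447 ± 0.123 CPM in GFP and 0.508 ± 0.0894 with LMNB2, and NONHSAG043458.2 at 14.01 ± 0.881 and 13.3 ± 0.165.

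The largest ATAC fold changes were in the thinnest windows. NONHSAG046599.2 (chr6:31089966-31090281) had the highest log2 fold change with each lamin, 0.92 (SE 0.65), 0.92 (SE 0.64) and 1.33 (SE 0.61) with LMNA, LMNB1 and LMNB2, on 2, 2 and 6 counts in GFP and 18, 14 and 17 with LMNB2. A short form of NONHSAG043380.2 (chr6:29929637-29929997) had the lowest with LMNA and LMNB2, -0.90 (SE 0.48) and -0.97 (SE 0.47), on 14, 23 and 16 counts in GFP, 5, 11 and 18 with LMNA and 12, 16 and 11 with LMNB2. lnc-HLA-DQB1-1 (chr6:32686299-32686723) had the lowest with LMNB1, -0.91 (SE 0.92), on 2, 8 and 10 counts in GFP and 6, 5 and 2 with LMNB1. None was called, and at these depths differences of this size were not told apart from the spread between libraries.

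Over all tested MHC windows the median ATAC change with LMNB2 was small and downward, the other way from the small RNA reads, but its libraries overlapped those of GFP. The log2 fold change was above 0 in 290 of 547 windows with LMNA (53.0%, against 49.6% of all tested windows), 280 with LMNB1 (51.2% against 49.5%) and 191 with LMNB2 (34.9% against 49.1%), with medians of 0.01, 0.01 and -0.05. By library, the median log2 deviation of the tested MHC windows from the GFP mean was 0.05, 0.01 and -0.05 in GFP. It was -0.03, -0.05 and -0.01 with LMNB2, so GFP replicate 3 lay among the LMNB2 libraries. Leaving out 1 library gave LMNB2 medians from -0.07 to -0.01. Scaling by total counts moved the median of all windows with LMNB2 to 0.11 and put 409 of the 547 above 0. Measured from the median of all windows, 196 of 547 were higher with LMNB2 under each of 4 scalings, a count that a change of scaling can hardly move. Of the 207 windows with a start region, 47 were above 0 with LMNB2 (22.7%, median -0.05), and of 24290 such windows of the same rule outside the MHC 40.9% were (median -0.02). All 3 LMNB2 libraries were below all 3 GFP libraries in 39 windows (7.13% against 4.72% of all tested windows) and above them in 13 (2.38% against 5.59%). With LMNA 20 windows were above (background 4.81%) and 25 below (4.74%), and with LMNB1 22 (4.62%) and 20 (3.84%). All 9 lamin libraries were below the GFP libraries in 11 windows (2.01% against 0.502%), 6 of which lay in the HLA-C to HLA-B locus, and above them in 1 (0.183% against 0.538%).

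**Figure D5:**
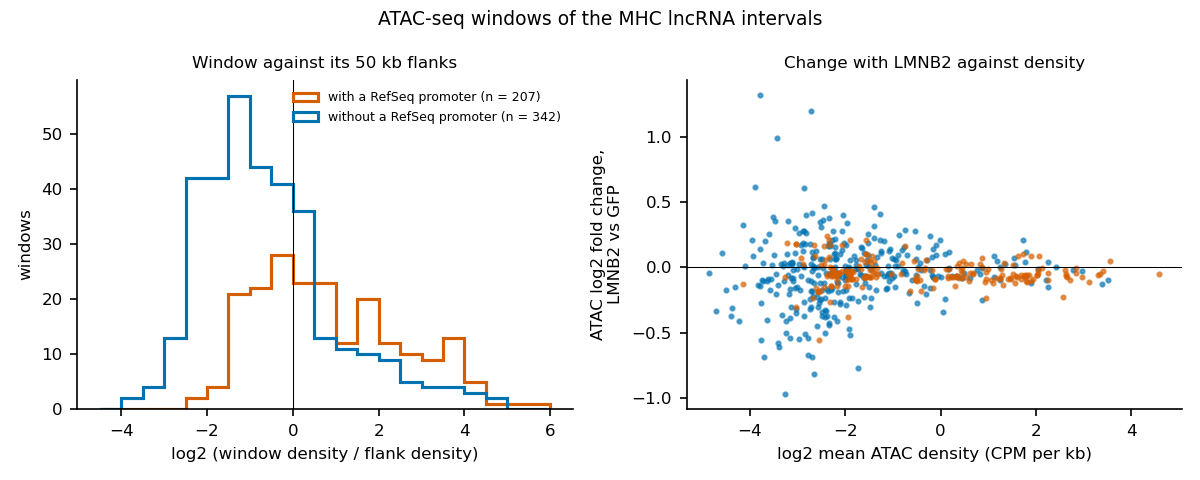
Left, number of windows by log2 ratio of ATAC density in the window to that in its 50 kb flanks, for 207 windows with a RefSeq start region and 342 without. Right, ATAC log2 fold change of LMNB2 against GFP by log2 mean density (CPM per kb) for the 547 tested windows, in the same colours. The 207 windows with a start region had a median of -0.05 (-0.56 to 0.24).

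The 2 assays were related in level but hardly in change. Across the 549 intervals, which share bases within loci and share their widths between assays, small RNA and ATAC density in CPM per kb had a Spearman rho of 0.37, and with 1 interval per locus 0.49. Across the 191 intervals tested in both, the rho of the 2 log2 fold changes was 0.11 with LMNA, 0.14 with LMNB1 and -0.15 with LMNB2. These correlations are across intervals of the same 24 libraries and are given as descriptions.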

How the data were processed

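Small RNA and ATAC-seq were each measured in 12 HEK293 libraries. The deposited tables hold raw counts per library, made by the authors for annotated non-coding features (small RNA) and for windows on and beside the same features (ATAC). Their build was GRCh38, per the submitters' processing notes, and the aligner, counting tool and use of strand are not given in the sources used here. Deposited starts count from 0 and were raised by 1, and the most common difference from RefSeq ends, over 26741 rows with a RefSeq symbol, was 25 bp added on each side (both ends in 3327). The members and lists were chosen with earlier results of these data known. Each assay was fitted over its whole table and all 12 libraries with edgeR 4.0.16 (R 4.3.3) after its filter on low counts (TMM scaling, prior count 2, robust quasi-likelihood test), and p-values were adjusted over all tested rows by Benjamini and Hochberg's method, called under 0.05. Joint tests asked for any difference among the 4 groups or the 3 lamins. The script was tested on simulated counts. Named intervals were those called, the 8 with the highest mean CPM per assay and the highest and lowest fold changes. Alternatives were other scalings, filters and thresholds, DESeq2 1.42.0, a replicate block, fewer libraries and other member sets. Results for 1 gene of the region are not reported here.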

Additional observations from a re-analysis of the deposited data

Results flagged for a closer look

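NONHSAG043510.2 (chr6:31727644-31730224, within DDAH2) drew attention because its small RNA level differed between the 3 lamins in a joint test of LMNA, LMNB1 and LMNB2 (adjusted p = 0.0487, edgeR's quasi-likelihood test). The interval passed the filter on low counts only with the LMNB2 libraries, so this difference was built into its selection and the test gives it no support. The LMNB2 libraries stood at 0.0965, 0.154 and 0.0853 CPM, and the highest LMNA or LMNB1 library was at 0.0552 CPM. Leaving out 1 library at a time gave adjusted p-values from 0.0205 to 0.388.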

How the results depend on the processing

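The alternatives were followed for 24 fold changes, those of called intervals and the highest and lowest with each lamin. Over all of them there were 470 pairs of a fold change and an alternative, and the direction was kept in each. These fold changes were picked for their size or call in the same data, so a kept direction was nearly fixed in advance. Calls came and went: 26 pairs lost a call and 12 gained one. With LMNB2, the call at lnc-HLA-C-5 held in 15 of 20 alternatives, that at HSALNG0049148 in 11 and that at NONHSAG043458.2 in 8. Small RNA intervals called with LMNB2 numbered 1 with total counts, 7 without a count filter, 1 with DESeq2, 9 with scaling without lncRNA rows, 0 with only the libraries compared and 0 at an adjusted p under 0.01. Without a filter LMNA called 2 and LMNB1 4. Among the 4 groups, DESeq2 size factors and the DESeq2 test each called 3, no filter and scaling without lncRNA rows 8 each, and total counts, a mean of at least 10 counts, the stricter threshold and 1 interval per locus 0. Among the 3 lamins, no filter called 2, scaling without lncRNA rows 4, and size factors, total counts, the mean of 10, DESeq2, the stricter threshold, intervals overlapping no other class and 1 per locus 0. The share of all rows called under each alternative was not set beside these counts. A change in the MHC intervals is thus not told apart from a table-wide change. The cause was not tested.

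Median small RNA log2 fold changes moved to -0.14 (LMNA, scaling without lncRNA rows), to 0.18 and 0.33 with total counts (LMNB1, LMNB2), and with 1 interval per locus to 0.077, 0.13 and 0.33 (LMNA, LMNB1, LMNB2). Among intervals that passed the count filter without the groups compared, an alternative added after the data were seen, they were -0.03, 0.01 and 0.04. With total counts the ATAC medians were 0.093, 0.19 and 0.062 for LMNA, LMNB1 and LMNB2, and 1 window was called with LMNB1.

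Leaving out 1 library at a time gave 0 to 2 calls with LMNA, 0 to 9 with LMNB2 (0 without GFP replicate 2, LMNB2 replicate 2 or LMNB2 replicate 3, 9 without GFP replicate 3), 0 to 9 among the 4 groups and 0 to 3 among the 3 lamins, and LMNB1 medians of -0.0059 to 0.11. With the replicate number as a block, 4 intervals were called with LMNB2, 1 in each joint test and 0 in the other comparisons, and lnc-HLA-B-2 had an adjusted p of 0.0547 among the 4 groups by edgeR. Deviations of same-numbered libraries correlated at -0.04 to 0.23 (small RNA) and -0.08 to 0.19 (ATAC), so the numbers were not taken as pairs. Few counts per interval limit the small RNA precision.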
